A study of Homo sapiens with 3 samples.

Results

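The lactate dehydrogenase genes LDHA, LDHB and LDHAL6A, the lactate transporter genes SLC16A1, SLC16A3 and SLC16A7, and BSG, whose product carries some of these transporters to the membrane, were examined in 2 clones of the human glioblastoma line U87. The 7 genes were taken by name out of 25006 named genes, with earlier results of these data known. All 9 of their probes out of 58201 on the array are given. U87WT 5 was stably transfected with GFP-IGF1R, the wild-type receptor of insulin-like growth factor 1 (IGF1) fused to green fluorescent protein. U87Mut 5 carried GFP-IGF1R1025x-1100x-1120x, a fusion with mutated lysines that stays out of the nucleus. Each was 1 clone, selected with G418 and picked for its IGF1R mRNA, so the receptor form and the clone cannot be told apart. On each of 3 arrays the U87WT RNA carried Cy5 and the U87Mut RNA carried Cy3, after 24 h in FBS-free medium, with 50 nM IGF1, or with 50 nM IGF1 and 0.5 μM OSI906, an inhibitor of the receptor's kinase given 1 h earlier. Another label of the last sample gives a far higher dose of OSI906, and the study's materials also differ on the time. There was 1 array per condition, with no dye swap and no parental sample, so dye and clone cannot be told apart either.

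Lactate dehydrogenase is a tetramer of LDHA and LDHB subunits that interconverts pyruvate and lactate, and LDHA-rich forms are typical of tissues that make lactate. Lactate crosses the plasma membrane together with a proton through monocarboxylate transporters, of which MCT1 is encoded by SLC16A1, MCT2 by SLC16A7 and MCT4 by SLC16A3. MCT4 is known for export from glycolytic cells, MCT2 for its high affinity, and basigin, the product of BSG, is the chaperone that MCT1 and MCT4 need to reach the membrane.

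LDHA and SLC16A3 are textbook targets of the hypoxia-inducible factor (HIF), whose core motif ACGTG also lies inside the E-box CACGTG. For each of the 2 genes the window that held these letters is shown, beside that of LDHB, the other subunit gene. They run from 250 bases before to 50 bases after a transcription start (RefSeq, GRCh38.p14), for LDHA at chr11:18394313-18394612 on the plus strand, for SLC16A3 at chr17:82228792-82229091 on the plus strand and for LDHB at chr12:21657793-21658092 on the minus strand. Capitals mark ACGTG on either strand, with the whole E-box where there is one.
LDHA: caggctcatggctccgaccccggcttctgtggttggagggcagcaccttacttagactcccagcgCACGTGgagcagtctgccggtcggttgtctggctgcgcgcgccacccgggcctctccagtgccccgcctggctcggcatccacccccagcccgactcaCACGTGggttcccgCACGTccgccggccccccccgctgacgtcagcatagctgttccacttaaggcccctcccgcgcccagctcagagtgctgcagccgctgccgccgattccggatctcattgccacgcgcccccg
SLC16A3: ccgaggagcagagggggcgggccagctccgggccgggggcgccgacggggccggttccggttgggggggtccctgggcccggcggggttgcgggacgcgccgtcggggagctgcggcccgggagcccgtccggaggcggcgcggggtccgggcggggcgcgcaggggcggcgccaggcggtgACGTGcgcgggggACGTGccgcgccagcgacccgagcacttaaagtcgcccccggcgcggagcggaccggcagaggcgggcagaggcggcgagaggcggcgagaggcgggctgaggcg
LDHB: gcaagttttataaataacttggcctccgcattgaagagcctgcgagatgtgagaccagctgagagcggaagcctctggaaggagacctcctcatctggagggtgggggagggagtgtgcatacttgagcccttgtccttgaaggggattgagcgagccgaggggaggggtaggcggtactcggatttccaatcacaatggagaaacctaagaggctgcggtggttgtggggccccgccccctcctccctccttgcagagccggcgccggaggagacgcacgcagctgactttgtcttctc
The LDHA window shown held 3 matches, 2 of them inside an E-box, and the SLC16A3 window shown held 2 with no E-box. LDHA had 2 windows and SLC16A3 had 5, and those not shown held 0 matches. No match was found in the LDHB window or in those of LDHAL6A and SLC16A7, and 1 of 2 BSG windows held 1 E-box. Of 35116 promoter windows of this length, 21.4% held ACGTG and 7.26% CACGTG on either strand. A match describes the letters only. No binding was measured, and no relation of the matches to the clone ratios was tested. SLC16A1 had no entry in the table used.

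The arrays measured brightness, which was normalized to a log2 signal per clone and to a log2 ratio of U87WT over U87Mut. A negative ratio means a lower signal in U87WT, and a ratio compares the RNA of whole cultures, in which fewer cells of a kind and less RNA per cell cannot be told apart. The medians over the spots were 33 to 35 in Cy5 and 30.5 to 33.5 in Cy3, and 47.6% of the probes were well above background for both dyes on every array. All 9 probes of the 7 genes were among them, and none was saturated or marked as not uniform. The 274 probes spotted 10 times gave an SD of the ratio of 0.0518 to 0.0561 between spots of 1 array, so 1.96 SD came to 0.101, 0.109 and 0.110 on the FBS-free, IGF1 and IGF1+OSI906 arrays. This spread covers spots, not cultures. Of the markers checked, VIM was bright, at a mean log2 signal of 15.61, and GFAP and S100B were not well above background. For CDKN2A, a gene deleted in U87, 1 of 2 probes was above it at 7.79. That probe had ratios of 0.27, 0.38 and 0.43 on the FBS-free, IGF1 and IGF1+OSI906 arrays. Its limma adjusted p was 0.0177, so a probe of a deleted gene also passed the test of the clone difference. The cause was not tested. IGF1R, transfected into both clones, had ratios of 0.07, 0.23 and 0.09 and so does not check the labels.

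None of the 7 genes, each read by its brightest probe, passed a log2 ratio of 0.5 in size on any array. Of all genes well above background, 12.5%, 12% and 11.4% did so on the FBS-free, IGF1 and IGF1+OSI906 arrays. The median ratio of the 7 genes was -0.22, -0.20 and -0.03, against -0.01, 0.02 and -0.01 over all genes. Across the 3 arrays limma called 2 of the 7 genes, LDHA and SLC16A1, lower in U87WT and 0 higher. The background of that test was 4.15% of 58174 probes called lower and 4.28% called higher, or 10.7% and 11% of the genes well above background. LDHA, SLC16A1 and BSG were below 0 on every array, as were 28.7% of all genes.

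**Figure D1:**
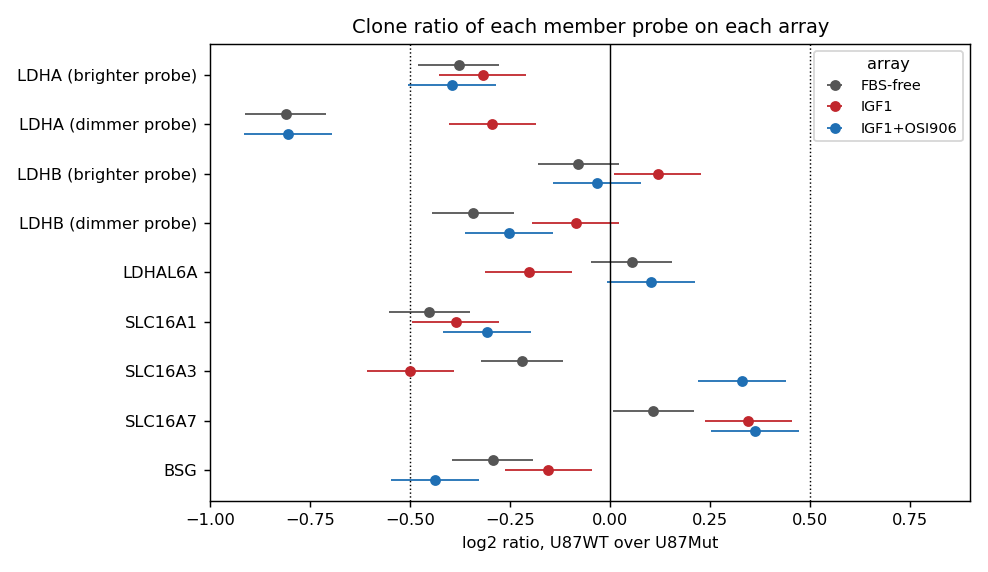
Log2 ratio of U87WT over U87Mut for each of the 9 probes on each array, with bars of 1.96 SD between spots and dotted lines at 0.5 in size. The probes of LDHA, SLC16A1 and BSG and the dimmer probe of LDHB lie below 0 on all arrays. SLC16A3 lies at -0.50 after IGF1 and at 0.33 with OSI906.

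LDHA, the subunit that favors lactate formation, was lower in U87WT on every array. Its brighter probe, A_23_P47565, had log2 signals of 13.50, 13.48 and 13.34 in U87WT and of 13.88, 13.80 and 13.74 in U87Mut in FBS-free medium, with IGF1 and with IGF1+OSI906. The 2 clones did not overlap across the arrays. How many of all genes show no overlap was not counted, so this and the like statements below only describe the values. The ratios were -0.38, -0.32 and -0.40, so the signal in U87Mut was 1.30, 1.25 and 1.32 times that in U87WT. The mean ratio was -0.36 ± 0.04 (SE, n = 3 arrays), with an adjusted p of 0.0107 by limma with Benjamini-Hochberg adjustment over all probes. The limma call was lost without the FBS-free array (adjusted p = 0.0740) or without the IGF1+OSI906 array (adjusted p = 0.0878), and under 5 of the processing alternatives (adjusted p = 0.206 to 0.938), among them the background fit on all spots, where the IGF1 ratio was -0.09. With median in place of loess normalization the IGF1 ratio turned to 0.36, while genes of like brightness shifted by 0.67 on that array. LDHA stood at -0.34 relative to them. Loess centers genes of like brightness near 0, so this value had to lie near the loess ratio of -0.32. It is no separate test of that ratio. This comparison was made for LDHA only, and not for the other genes whose sign turned.

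The dimmer LDHA probe, A_32_P44568, gave larger differences on the outer arrays. Its log2 signals were 10.90, 11.25 and 10.60 in U87WT and 11.71, 11.54 and 11.41 in U87Mut, again with no overlap between the clones. The ratios were -0.81, -0.30 and -0.81, and limma gave a mean of -0.64 ± 0.12 (SE, n = 3 arrays) with a Benjamini-Hochberg adjusted p of 0.0446. The probes thus shared a direction on all 3 arrays and were 0.43 and 0.41 apart in ratio in FBS-free medium and with OSI906, but 0.02 apart after IGF1. Only the dimmer probe passed 0.5 in size, on the arrays other than IGF1.

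LDHB, the subunit typical of lactate-using tissues, showed no clone difference that passed the test. The brighter probe, A_23_P53476, had log2 signals of 14.91, 14.93 and 14.86 in U87WT and of 14.99, 14.81 and 14.89 in U87Mut, so the clones overlapped. Its ratios were -0.08, 0.12 and -0.03, and the mean was 0.00 ± 0.05 (SE, n = 3 arrays) with a limma adjusted p of 0.994. The dimmer probe, A_33_P3231432, had ratios of -0.34, -0.09 and -0.25 with a limma adjusted p of 0.107, and its spot on the IGF1 array carried a background outlier mark. On the IGF1 array the brighter probe depended on the processing. Its ratio there was 0.59 with all spots in the background fit, 0.71 in the deposited table and 0.88 with median normalization. It turned to -0.02 with the processed signals, and the IGF1+OSI906 ratio turned to 0.37 with median normalization.

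The LDHA ratio was below the LDHB ratio on every array. The difference was -0.30, -0.44 and -0.36 between the brighter probes and -0.47, -0.21 and -0.55 between the dimmer ones. Between the brighter probes it stayed below 0 under each of the 9 other ways of processing that were run for it, from -0.73 to -0.17. Not all of these could change its sign. No normalization between arrays leaves the difference as it was, and scale normalization only multiplies it. A shift common to an array, as in median normalization, cancels in it. The difference compares 2 clone ratios and not the amounts of the subunits.

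LDHAL6A, an LDHA-like gene known from testis, had log2 signals of 9.97, 10.08 and 10.45 in U87WT and of 9.92, 10.28 and 10.35 in U87Mut. The clones overlapped, and the lowest signal of each was in FBS-free medium. Its ratios were 0.05, -0.20 and 0.10, with a limma adjusted p of 0.931. On the IGF1 array the ratio was -0.52 with all spots in the background fit and turned to 0.23 with median normalization, which also turned the FBS-free ratio to -0.23.

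SLC16A1, which encodes MCT1, was lower in U87WT throughout. Its log2 signals were 7.80, 7.73 and 7.76 in U87WT and 8.25, 8.12 and 8.07 in U87Mut, without overlap. The ratios were -0.45, -0.39 and -0.31, and the mean of -0.38 ± 0.04 (SE, n = 3 arrays) had a limma adjusted p of 0.0135 by Benjamini-Hochberg. The limma call was lost without the FBS-free array (adjusted p = 0.0777), without the IGF1+OSI906 array (adjusted p = 0.0729) and under the same 5 alternatives (adjusted p = 0.0910 to 0.585). The ratio was below 0 on all arrays under every alternative run, though some of these cannot change a sign.

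SLC16A3, which encodes MCT4, was the gene whose clone ratio crossed 0 by the widest span. Its log2 signals were 10.90, 10.83 and 10.93 in U87WT and 11.12, 11.33 and 10.60 in U87Mut. The 3 values of U87WT lay within those of U87Mut, which was highest with IGF1 and lowest with IGF1+OSI906. The ratios were -0.22, -0.50 and 0.33, each farther from 0 than the spread between spots, and the IGF1 ratio lay just inside the limit of 0.5. Over the 3 arrays the mean was -0.13 ± 0.16 (SE, n = 3 arrays), with a limma adjusted p of 0.733. The sign on each array held under all alternatives, some of which cannot change a sign. The IGF1 ratio ran from -0.75 in the deposited table to -0.01 with median normalization.

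SLC16A7, which encodes MCT2, was the transporter with higher signals in U87WT. They were 7.44, 7.45 and 7.43 in U87WT and 7.33, 7.11 and 7.07 in U87Mut, without overlap. The ratios of 0.11, 0.34 and 0.36 gave a mean of 0.27 ± 0.06 (SE, n = 3 arrays), which did not pass the test (limma adjusted p = 0.0815). With all spots in the background fit the IGF1 ratio was 0.04, and with median normalization the FBS-free ratio turned to -0.08.

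BSG had log2 signals of 11.39, 11.31 and 11.42 in U87WT and of 11.68, 11.46 and 11.85 in U87Mut. The clones did not overlap. Its ratios of -0.29, -0.15 and -0.44 gave a mean of -0.30 ± 0.06 (SE, n = 3 arrays), which missed the threshold (limma adjusted p = 0.0649). It passed when only probes well above background were tested (adjusted p = 0.0419 by limma) and without the IGF1 array (adjusted p = 0.0240 by limma), but the limma adjusted p was 0.293 with an offset of 0, 0.316 with the processed signals and 0.885 with median normalization. Over all probes limma called 2935 higher and 3098 lower without the IGF1 array, against 2491 and 2414 with all 3 arrays. With median normalization the IGF1 ratio of BSG turned to 0.36.

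**Figure D2:**
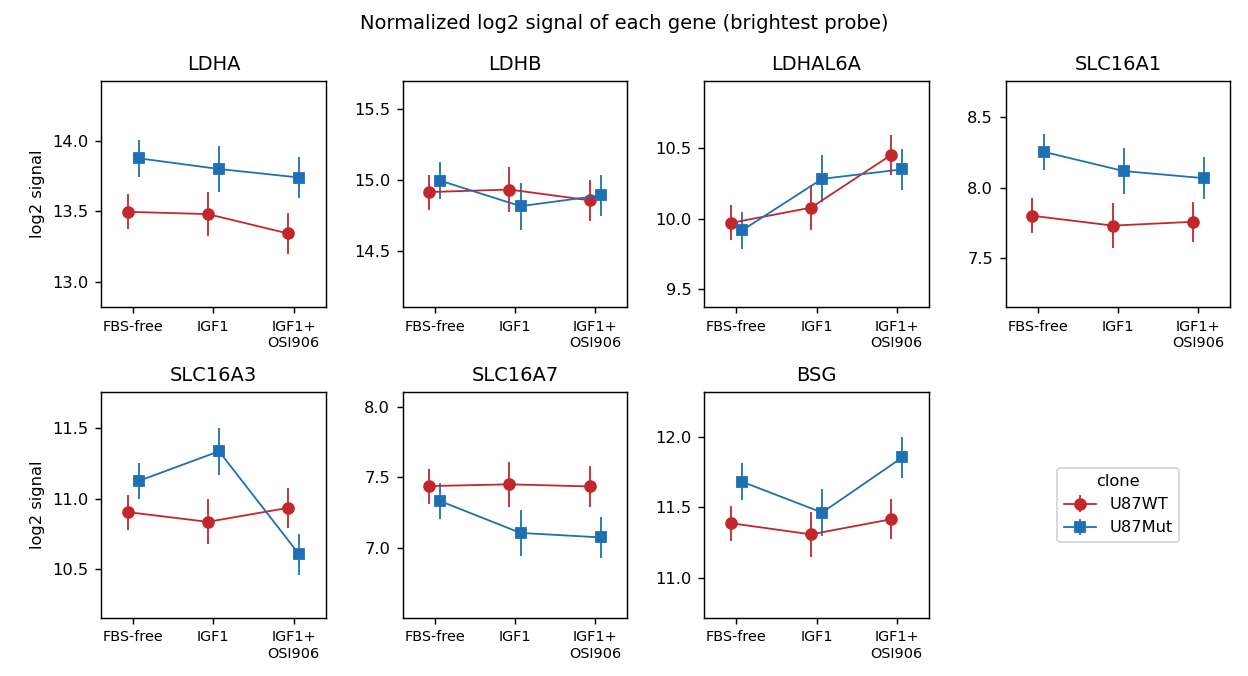
Normalized log2 signal of the brightest probe of each gene in U87WT and U87Mut on the 3 arrays, with bars of 1 SD between spots and panels of equal height. SLC16A3 in U87Mut runs from 11.33 with IGF1 to 10.60 with IGF1+OSI906, while its signals in U87WT lie between 10.83 and 10.93.

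The response of each clone was read as the difference between arrays in 1 channel, with no test, since each condition had 1 array. After IGF1, 0 of the 7 genes moved by more than 0.5 from FBS-free medium in either clone. In that comparison 2.11% of all genes rose and 2.72% fell by more than 0.5 in U87WT, and 0.854% and 1.68% did in U87Mut. The changes of the clones were more than 0.5 apart in 0 of the 7 genes and in 5.63% of all genes. They were apart by more than the spread between spots of 0.15 in 4 of the 7, LDHB, LDHAL6A, SLC16A3 and SLC16A7. The share of all genes beyond that spread was not counted. The same contrast gave the brighter LDHA probe -0.02 in U87WT and -0.08 in U87Mut, within a spot spread of 0.39 and 0.41. The dimmer LDHA probe gave 0.35 in U87WT and -0.16 in U87Mut, also each within that spread.

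With IGF1+OSI906, SLC16A3 in U87Mut was the only case among the 7 genes past 0.5, in both contrasts. It was -0.73 relative to the IGF1 array, where 0.984% of all genes were below -0.5, and -0.52 relative to FBS-free medium, where 0.763% were. In U87WT the same differences were 0.10 and 0.03. In the other directions, 0.684% of all genes were above 0.5 in U87Mut relative to FBS-free medium, and in U87WT 3.68% were below -0.5 relative to IGF1, 2.44% above 0.5 and 2.27% below -0.5 relative to FBS-free medium. The changes of the clones were thus 0.83 and 0.55 apart, beyond a spread between spots of 0.15 in both contrasts. A difference of that kind above 0.5 in size was found for 6.24% and 2.82% of all genes. Under the alternatives the value in U87Mut stayed between -0.84 and -0.53 relative to IGF1 and between -0.78 and -0.51 relative to FBS-free medium.

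LDHAL6A was higher with IGF1+OSI906 than in FBS-free medium by 0.48 in U87WT and 0.43 in U87Mut, beyond the spot spread of 0.37 and 0.38 but under 0.5. BSG in U87Mut differed by 0.39 between IGF1+OSI906 and IGF1, within the spot spread of 0.43. For the dimmer LDHA probe the U87WT signal was -0.65 relative to the IGF1 array, whereas the brighter probe gave -0.14. The difference between the probes was not tested.

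**Figure D3:**
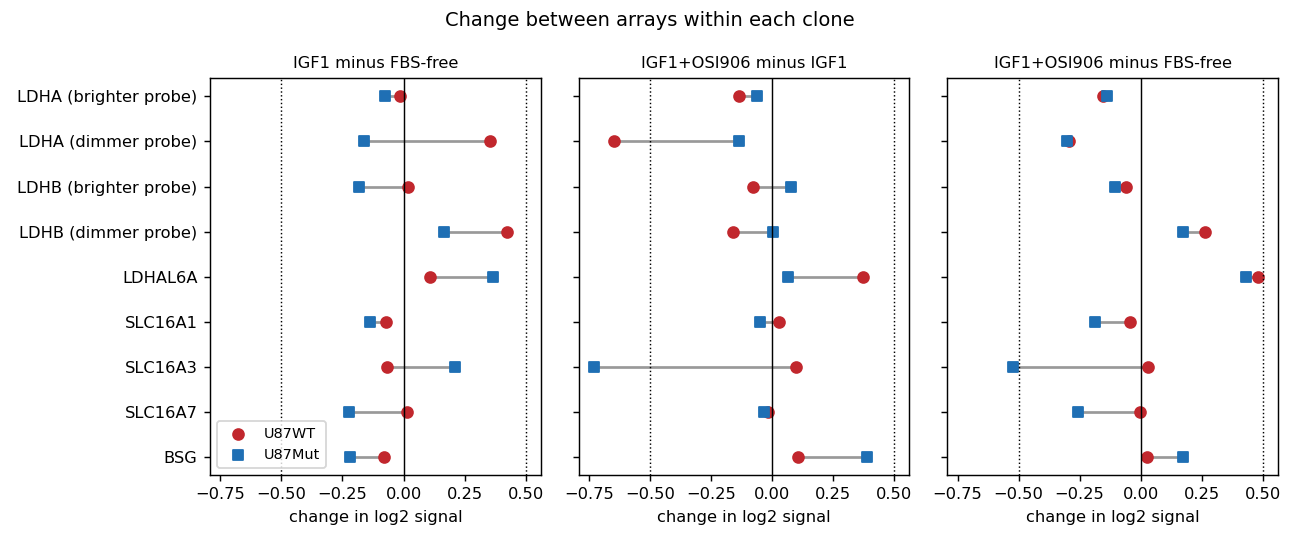
Change in log2 signal between arrays within U87WT (circles) and U87Mut (squares) for each probe, with dotted lines at 0.5 in size. The longest gap between the clones is that of SLC16A3 from IGF1 to IGF1+OSI906, with 0.10 in U87WT and -0.73 in U87Mut.

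A gene was coded as higher or lower on the IGF1 array when its ratio there fell in another class, above 0.5, below -0.5 or between them, than on both other arrays. By this code 0 of the 7 genes were higher or lower, against 3.56% of all genes higher and 2.19% lower. SLC16A3 came closest, with an IGF1 ratio 0.55 below the mean of the others. Of the 9 probes, the dimmer one of LDHA was coded higher, because its ratio was -0.30 on the IGF1 array and -0.81 on the others. With all spots in the background fit 3 of the 7 genes received a code, and the share of all genes under that fit was not counted.

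**Figure D4:**
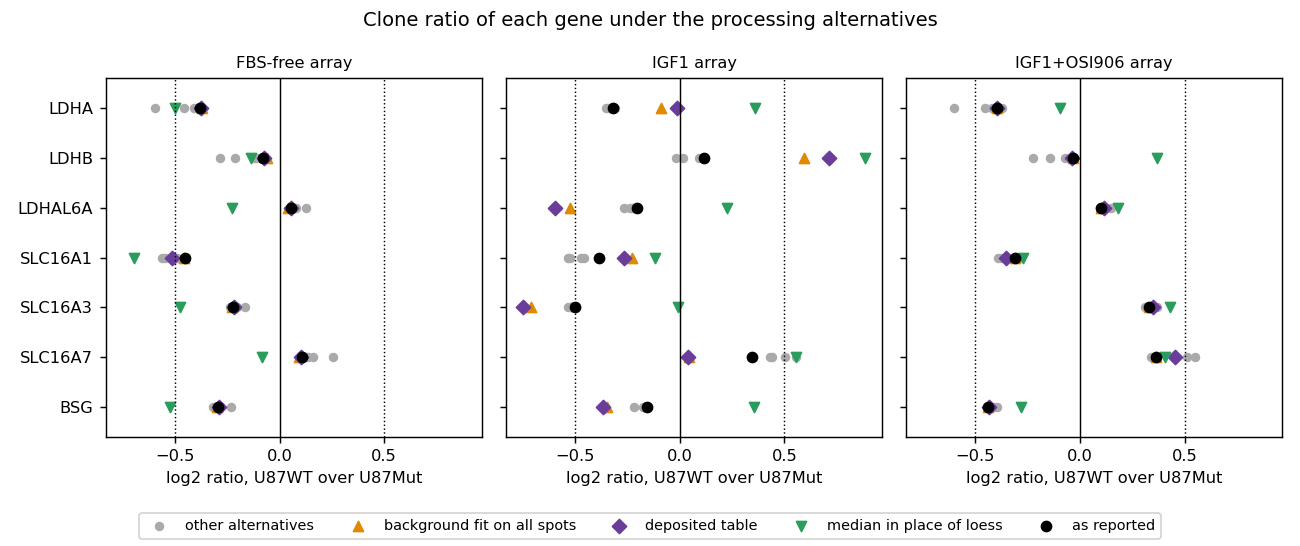
Log2 ratio of U87WT over U87Mut for each of the 7 genes under the processing alternatives, 1 panel per array, with dotted lines at 0.5 in size. The alternatives spread most on the IGF1 array. There LDHB lies at 0.12 as reported, 0.59 with all spots in the background fit, 0.71 in the deposited table and 0.88 with median normalization.

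Of 24 other genes of lactate and pyruvate handling, 16 had a probe that stood well above background for both dyes on every array. On at least 1 array SLC16A5 and LDHD were above 0.5 and SLC16A6 was below -0.5. Of all genes well above background, 12.5%, 12% and 11.4% were past 0.5 in size on the FBS-free, IGF1 and IGF1+OSI906 arrays. The share past it on at least 1 array was not counted. Of the 16, limma called 4 higher in U87WT and 0 lower, against 11% and 10.7% of all genes well above background. The largest ratio was that of SLC16A5, a monocarboxylate transporter family member, at 1.76, 0.99 and 1.25 with a limma adjusted p of 0.0141. Its spot on the FBS-free array was marked as not uniform. LDHD, the mitochondrial D-lactate dehydrogenase, had ratios of 0.44, 0.82 and 0.56, and SLC16A4 had 0.42, 0.47 and 0.23, with limma adjusted p of 0.0194 and 0.0306.

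Of the 16, only SLC16A6 was above 0.5 with IGF1+OSI906 relative to IGF1, in both clones. Its log2 signals were 6.41, 6.53 and 7.64 in U87WT and 6.94, 6.82 and 7.88 in U87Mut, so both clones were highest with IGF1+OSI906. Relative to IGF1 the differences were 1.12 and 1.06. In that contrast 3.73% of all genes were above 0.5 in U87WT and 2.07% in U87Mut. The pyruvate kinase gene PKM had clone ratios of -0.04, 0.06 and -0.05, and the mitochondrial pyruvate carrier genes had 0.24, 0.11 and 0.06 for MPC1 and -0.23, 0.32 and 0.04 for MPC2. EMB, which encodes embigin, the partner of MCT2, was not well above background.

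**Figure D5:**
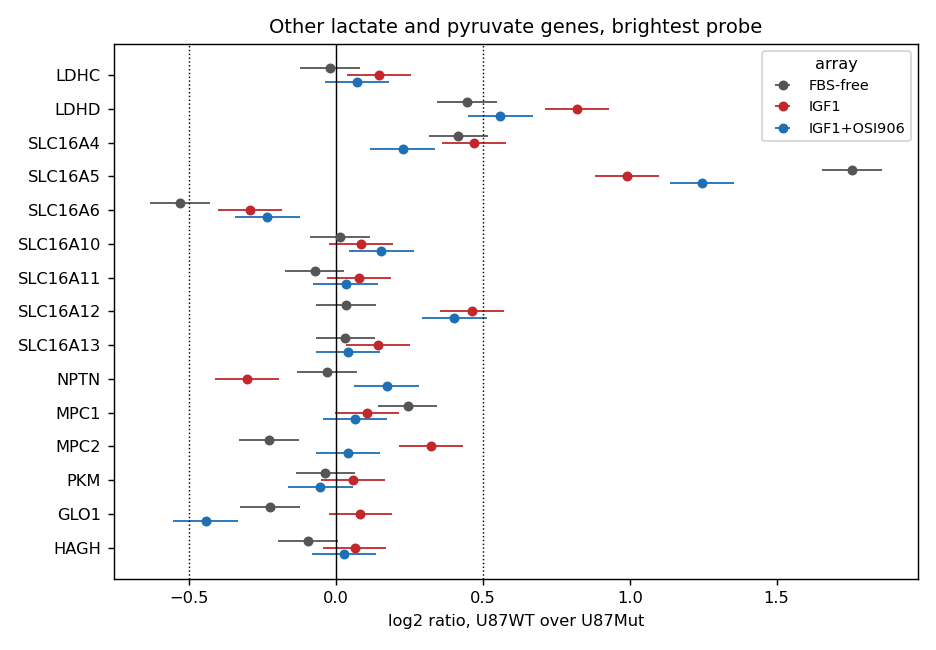
Log2 ratio of U87WT over U87Mut for the other lactate and pyruvate genes well above background that are reported here, with bars of 1.96 SD between spots and dotted lines at 0.5 in size. SLC16A5 lies between 0.99 and 1.76, while PKM stays within 0.06 of 0.

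The genes with clone ratios nearest to those of a member, by Euclidean distance over the 3 arrays, were IPO4, CENPO and ENO1 for LDHA, at distances of 0.016, 0.016 and 0.019. IPO4 and CENPO both had ratios of -0.38, -0.33 and -0.41, and ENO1, the glycolytic enolase, had -0.36, -0.31 and -0.39. How close the nearest genes lie for genes in general was not counted. For LDHB they were P2RY1, RER1 and TRIM62, at 0.012, 0.012 and 0.017. For SLC16A3 the nearest was VAMP2, at 0.036 and with ratios of -0.19, -0.50 and 0.34, followed by TMEM95 at 0.090 and RBFOX3 at 0.116.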

How the data were processed

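RNA of U87WT 5 (Cy5) and U87Mut 5 (Cy3) was compared on 3 Agilent arrays, 1 per condition. The intensity values deposited by the authors are, per the file headers, median spot and median local background signals from Agilent Feature Extraction 12.0.3.1, without normalization. The same software deposited processed intensities and other marks per spot (not uniform, outlier, saturated, well above background). The authors also deposited log2 ratios, with medians of -0.0066, -0.0074 and -0.0030 on the 3 arrays. They match loess ratios after normexp on all spots (offset 20) within 4.9e-08, which settles their scale and direction. No column of another sample was left unused (0).

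Of 62976 spots per array, 384, 572 and 5 marked as not uniform were kept out of the background fit (normexp, offset 50). Local background in Cy5 reached 66985 on the IGF1 array, where its fitted SD was 1.32 without these spots and 701 with them. Control spots and outliers were left out, and loess within and Aquantile between arrays followed (R 4.3.3, limma 3.58.1, data.table version 1.17.8). Spots of a probe were averaged, and the brightest probe stood for a gene. Names came from RefSeq for 34892 of 36770 probes with a RefSeq accession. For the clone difference, an intercept was fitted to the 3 ratios of each of 58174 probes by limma (lmFit, eBayes), with Benjamini-Hochberg adjustment at 5%. The arrays are different conditions, so responses to treatment add to its error. Sizes were called past 0.5. Precision is limited by the number of arrays, and the steps were tested on simulated data.

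The 7 genes and the lists were chosen with earlier results of these data known. Named are all members, the genes of the second list past 0.5 on an array with PKM, MPC1, MPC2 and EMB, and the 3 genes nearest to LDHA, LDHB and SLC16A3. SLC16A4, VIM, GFAP, S100B, CDKN2A and IGF1R were added as calls or markers. In the second list, 1 gene is counted but not reported here. Alternatives were other background fits and offsets, none, the processed signals, the deposited table, other normalizations within and between arrays, the mean of probes, a filter on dim probes, a limit of 0.5 SD and leaving out each array.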

Additional observations from a re-analysis of the deposited data

Results flagged for a closer look

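In 3 cases the clones had changes of opposite sign between arrays that lay more than 0.5 apart. Another 6 of the 27 pairs of changes had opposite signs with gaps of 0.08 to 0.28. None of these differences was tested, since each condition had 1 array. After IGF1 the dimmer LDHA probe differed from FBS-free medium by 0.35 in U87WT and by -0.16 in U87Mut, values 0.516 apart on the log2 scale, while the brighter probe was 0.06 apart. SLC16A3 differed between the clones by 0.829 in its change from IGF1 to IGF1+OSI906 and by 0.551 in its change from FBS-free medium to IGF1+OSI906. Each was beyond the spread between spots of 0.15, which does not cover differences between cultures.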

How the results depend on the processing

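As reported, 0 of 21 clone ratios of the 7 genes passed 0.5, 2 genes passed the limma test, 2 of 42 responses passed 0.5, 0 genes were coded on the IGF1 array and 4 other genes passed 0.5. With all spots in the background fit these were 3, 0, 4, 3 and 6. With an offset of 20 they were 2, 2, 2, 1 and 6, and with an offset of 0 they were 5, 0, 3, 1 and 7. Without background correction they were 1, 2, 2, 1 and 6. The signals processed by the scanner software gave 5, 0, 4, 1 and 7, and median in place of loess gave 4, 0, 6, 2 and 10. The deposited table, which has no single channels and so no responses, gave 4 ratios, 0 limma calls, 3 codes and 8 other genes. The mean of all probes gave 2 ratios and 1 code, with 2 responses and 4 other genes. A limit of 0.5 SD of each array (0.113, 0.119 and 0.108) gave 15 ratios, 18 responses, 1 code and 13 other genes. At this limit and under the other alternatives, the shares of all genes with such ratios, responses or codes were not counted. The counts therefore show only how the results move with the processing. Leaving out each array gave 0 to 3 limma calls, 0 without the FBS-free or the IGF1+OSI906 array and 3 without the IGF1 array. No or scale normalization between arrays, quantile normalization of the channels and the filter on dim probes moved none of these counts by more than 1.5 times, where they applied. Over all probes limma called 2491 higher and 2414 lower in U87WT as reported. The counts were 153 and 516 with all spots in the fit, 275 and 177 with an offset of 0, and 179 and 606 in the deposited table. They were 676 and 483 without the FBS-free array, 2935 and 3098 without the IGF1 array, and 122 and 110 without the IGF1+OSI906 array. It called 0 with the processed signals (9947 at an unadjusted p under 0.05) and 0 with median normalization (5125). Median normalization shifted all genes by -0.16, 0.27 and 0.06 and changed the sign of 6 of 21 ratios, against 1 of 210 under the others together. Many of the 210 could not change sign. No normalization between arrays and the filter on dim probes leave the ratios as they were, and scale normalization only multiplies them. The mean of probes changes nothing for a gene with 1 probe. The 2 counts are therefore not alike, and the cause of the sign changes was not tested. The limma test was not run on the mean of probes. The limma fit uses ratios within arrays and so already pairs the clones. Between the conditions no paired analysis was possible because each had 1 array.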
